A study of Homo sapiens with 6 samples.

Results

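The genes described here are 42 named genes of the amino acid response that the transcription factor ATF4 drives, together with the enzymes that charge transfer RNAs. They fall into 14 stress genes and regulators, 8 enzymes of amino acid and folate metabolism, 5 amino acid carriers and 15 cytosolic aminoacyl-tRNA synthetases. The genes were picked by name, and a gene counted as measured where the array annotation assigned at least 1 probe set to it and to no other gene. This held for 41 of the 42, through 80 probe sets, among 19775 genes in all. The exception was MARS, the methionyl-tRNA synthetase gene, whose probe sets also list a microRNA gene, so it is not described. Synthetase genes are given under the older symbols (AARS is now AARS1, and so on).

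The cells were MDA-MB-231, an established human breast cancer line that lacks the oestrogen receptor. The labels describe 3 arrays from cells that received a control vector and 3 from cells that received a plasmid expressing HS3ST2, a heparan sulfate 3-O-sulfotransferase. The promoter of the plasmid, the time from transfection to harvest and any selection or cloning are not stated in the labels, and p-values therefore measure the spread between arrays, which may be technical. The deposited log2 values are centred per probe set (median of the 6 arrays at 0), so differences between arrays can be read but the level of a gene, including markers of the cell type, cannot. The single probe set of HS3ST2 itself gave -0.22, 0.17 and -0.11 in control arrays and 0.16, 0.04 and -0.04 in the other group, a difference of 0.11 ± 0.10 log2 (SE, n = 3 per group, limma adjusted p 0.523). It does not check the labels, and the group is called HS3ST2-labelled.

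Cells that run short of amino acids, or that are stressed in other ways, phosphorylate the initiation factor eIF2. General protein synthesis then slows while the ATF4 messenger is translated, and ATF4 protein, paired with C/EBP factors, turns on genes for amino acid synthesis, uptake and tRNA charging. The same program holds its own brakes and a death arm around DDIT3, also called CHOP. ATF4 is controlled largely at translation, so the abundance of its RNA is not a measure of its protein.

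The DNA element that ATF4 and C/EBP dimers are known to bind is written TGATGNAA in its shortened form, and it was searched on both strands in the RefSeq promoter windows of build GRCh38.p14, from 250 bases before to 50 bases after each start. Of the 42 genes, 34 had a window, and 14 of these (41.2%) held the element in at least 1 window. Over all 27305 genes with a window the share was 4.46%. Some genes have several windows, and counted by window the shares were 26.4% of 53 against 3.62% of 35116. The stricter form TGATGCAA, whose matches are also matches of the first form, lay in 9 of the 34 genes (26.5%) and in 1.08% of all genes. By measured response, the element was present in 4 of 11 genes that rose with a window, in 2 of 5 that fell and in 7 of 17 that were not called. By class, it was present in 3 of 13 stress genes with a window, 1 of 5 enzymes, 3 of 4 carriers and 7 of 12 synthetases. A match is a run of letters and no evidence of binding in these cells. The stretches below are shown because they set genes with the element side by side that rose (CHAC1, CEBPG, ASNS, AARS), fell (IARS, ATF3) or did not pass (SLC1A5). All are on the strand of the gene, 5′ to 3′, and end before the start, with the element in capitals (TTGCATCA is TGATGCAA read on the other strand).
CHAC1: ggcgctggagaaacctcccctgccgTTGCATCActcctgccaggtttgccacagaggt
CEBPG: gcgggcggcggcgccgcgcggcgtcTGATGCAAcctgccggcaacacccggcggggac
ASNS: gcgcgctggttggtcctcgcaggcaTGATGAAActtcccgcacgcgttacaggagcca
AARS: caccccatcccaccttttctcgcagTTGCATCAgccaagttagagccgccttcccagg
IARS: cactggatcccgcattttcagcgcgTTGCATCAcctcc
ATF3: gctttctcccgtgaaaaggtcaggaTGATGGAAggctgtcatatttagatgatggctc
SLC1A5: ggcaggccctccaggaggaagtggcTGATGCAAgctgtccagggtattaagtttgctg

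These stretches lie at chr15:40953237-40953294 (plus strand) for CHAC1, chr19:33374046-33374103 (plus) for CEBPG, chr7:97872444-97872501 (minus) for ASNS and chr16:70289661-70289718 (minus) for AARS. Those of IARS, ATF3 and SLC1A5 lie at chr9:92293698-92293735 (minus), chr1:212565191-212565248 (plus) and chr19:46784879-46784936 (minus). The first base of the element stood 209 bases before the start in CHAC1, 42 in CEBPG, 68 in ASNS, 187 in AARS, 13 in IARS, 191 in ATF3 and 97 in SLC1A5.

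The amino acid enzymes rose together in the HS3ST2-labelled arrays, while the carriers did not pass the test and the stress genes and synthetases moved both ways. Among the 41 genes, 16 rose, 6 fell and 19 did not pass at a limma adjusted p under 0.05, taken over all 19775 genes. Over all genes 24.5% were called, 11.5% higher and 13.0% lower. By class, 8 of 8 enzymes rose, 0 of 5 carriers were called (also 0 at an unadjusted p under 0.05), 4 of 14 synthetases rose and 2 fell, and 4 of 14 stress genes rose and 4 fell. The median difference was 0.32 log2 for the enzymes, -0.07 for the carriers, -0.02 for the synthetases and 0.07 for the stress genes, beside 0.0088 over all genes. The groups did not overlap for 28 of the 41 genes, against 40.4% of all genes. Without HS3ST2 replicate 3, which carried most ribosomal RNA signal, 13 genes rose and 3 fell. Over all 19775 genes that fit called 3805, against 4845 in the main fit. The falls were also 3 without control replicate 2 or HS3ST2 replicate 1. The _x_at and _s_at kinds of probe set can read related transcripts, and 28 genes have a probe set of another kind. With the _x_at and _s_at kinds dropped, 11 of the 28 rose and 2 fell. Not measured there were DDIT4, VLDLR, VARS and IARS, which fell in the main fit, and NUPR1, PSAT1 and LARS, which rose. YARS, which fell there, was not called in the main fit.

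**Figure D1:**
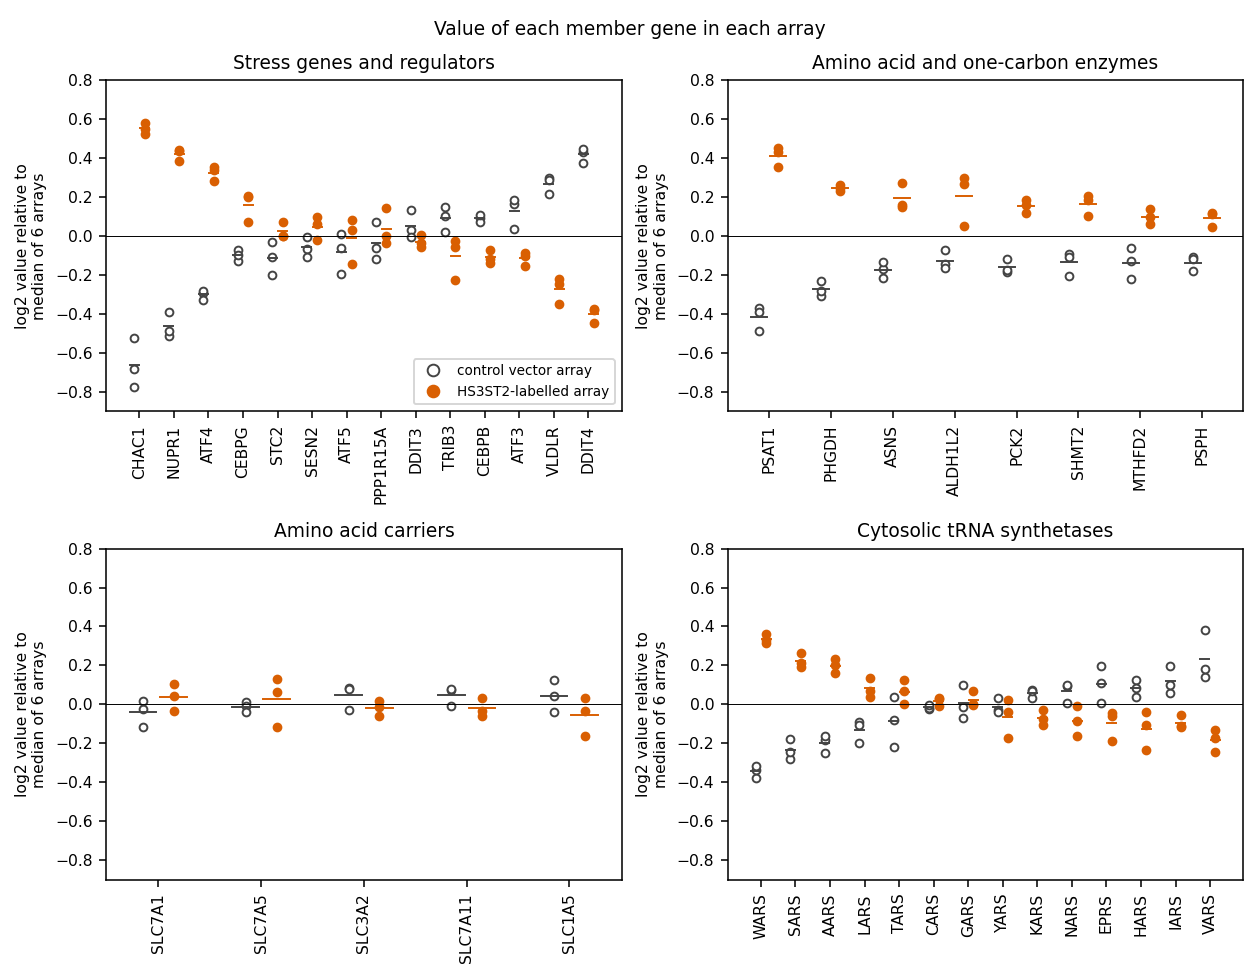
Log2 value of each of the 41 genes in each array, relative to the median of the 6 arrays (vertical axis), by class; open circles are the 3 control vector arrays, filled circles the 3 HS3ST2-labelled arrays and short lines the group means. The filled circles lie above the open ones for all 8 enzymes, the groups interleave for all 5 carriers, and the stress genes run from CHAC1, higher in every HS3ST2-labelled array, to DDIT4, lower in each.

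Among the stress genes, ATF4 and 3 others rose. ATF4, the transcription factor at the head of the program, gave -0.29, -0.33 and -0.28 in control arrays and 0.34, 0.28 and 0.36 in HS3ST2-labelled arrays. Its groups are far apart beside their spread, and the difference was 0.63 ± 0.05 log2 (SE), a 1.54-fold rise. CHAC1, which breaks down glutathione and is a sensitive ATF4 target, gave -0.68, -0.78 and -0.53 against 0.58, 0.53 and 0.55. That rise of 1.21 ± 0.07, or 2.32-fold, was the largest of the 41 genes and ranked 61st among the 19775. NUPR1, a small nuclear stress protein, gave -0.39, -0.52 and -0.49 against 0.44, 0.39 and 0.44, a rise of 0.89 ± 0.06 (1.85-fold). CEBPG, a C/EBP protein that pairs with ATF4, gave -0.07, -0.13 and -0.10 against 0.20, 0.07 and 0.21, and rose by 0.26 ± 0.06. HS3ST2 replicate 2 lay below the other arrays of its group. Its call was lost by a narrow margin without HS3ST2 replicate 3 (0.24, limma adjusted p 0.0502).

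Other genes counted as ATF4 targets fell. DDIT4, also called REDD1, an inhibitor of the growth kinase complex mTORC1, gave 0.43, 0.38 and 0.45 in control arrays and -0.38, -0.38 and -0.45 in HS3ST2-labelled arrays. The groups are far apart beside their spread here too, and DDIT4 fell by 0.82 ± 0.05 log2 (SE), 1.77-fold. VLDLR, a lipoprotein receptor, gave 0.30, 0.29 and 0.22 against -0.35, -0.22 and -0.25, and fell by 0.54 ± 0.06. ATF3, a stress-induced partner of the AP-1 and ATF factors, gave 0.04, 0.16 and 0.18 against -0.10, -0.09 and -0.15. It fell by 0.24 ± 0.06, with 2 of its 3 probe sets called. CEBPB, another C/EBP protein, gave 0.09, 0.07 and 0.11 against -0.14, -0.07 and -0.12. Its values were tight in both groups, and it fell by 0.20 ± 0.05 in the fit over genes, while its single probe set did not pass over all probe sets. ATF3 and CEBPB were not called without control replicate 2 or 3 or without HS3ST2 replicate 1 or 3, where their adjusted p lay between 0.0503 and 0.0695. With the _x_at and _s_at probe sets dropped, ATF3 was at -0.15 and not called (limma adjusted p = 0.167).

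DDIT3 and TRIB3 did not pass the test. DDIT3, the CHOP factor, gave 0.03, -0.01 and 0.13 in control arrays and -0.06, 0.01 and -0.04 in HS3ST2-labelled arrays. The groups overlap, and the difference was -0.08 ± 0.06 log2 (SE) with a 95% interval from -0.21 to 0.05. TRIB3, a pseudokinase that restrains ATF4, gave 0.10, 0.02 and 0.15 against -0.02, -0.06 and -0.23. These groups do not overlap and lie in the lower direction, but the difference of -0.19 ± 0.07 did not pass (adjusted p 0.0848). Both TRIB3 probe sets gave nearly the same difference, -0.19 and -0.20.

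The other 4 stress genes did not pass either. SESN2, a leucine sensor that restrains mTORC1, was at 0.11 ± 0.06 log2 (SE), and STC2, a secreted glycoprotein, at 0.14 ± 0.06. PPP1R15A, also called GADD34, the subunit that directs a phosphatase to eIF2, was at 0.07 ± 0.07. ATF5, a translationally controlled relative of ATF4, was at 0.07 ± 0.08 over 4 probe sets. Their upper 95% limits were 0.24, 0.28, 0.24 and 0.26 log2, each below the lower limit of 0.51 for ATF4. The upper limit of CEBPG, which was called, was 0.39 and also lay below it.

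Among the classes described here, only the enzymes moved in a single direction. Further measured amino acid and folate enzymes linked to ATF4, given below, were not called higher. Serine is made from a glycolytic intermediate by PHGDH, PSAT1 and PSPH acting in turn. PHGDH gave -0.23, -0.31 and -0.28 in control arrays and 0.25, 0.26 and 0.23 in HS3ST2-labelled arrays, a rise of 0.52 ± 0.05 log2 (SE, 1.43-fold). PSAT1 gave -0.49, -0.37 and -0.39 against 0.35, 0.45 and 0.43, and its rise of 0.83 ± 0.06 (1.78-fold) was the largest of the class. Both of its probe sets were called, at 0.66 and 1.00. PSPH, the last step, gave -0.11, -0.18 and -0.12 against 0.12, 0.11 and 0.05. It rose less, by 0.23 ± 0.05, and 1 of its 3 probe sets was called (0.52).

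Serine then feeds the mitochondrial folate cycle. SHMT2, which splits serine into glycine and a folate-bound carbon, gave -0.09, -0.20 and -0.11 against 0.20, 0.18 and 0.10, a rise of 0.30 ± 0.06 log2 (SE). MTHFD2, the next enzyme of the cycle, gave -0.22, -0.13 and -0.06 against 0.10, 0.06 and 0.14, and rose by 0.24 ± 0.06. The groups of both enzymes were apart. ALDH1L2, which oxidises formyl-folate in mitochondria, gave -0.14, -0.17 and -0.07 against 0.30, 0.05 and 0.27, and rose by 0.33 ± 0.08. HS3ST2 replicate 2 stood nearest the control arrays, and 1 of its 3 probe sets (0.82) was called. PCK2, the mitochondrial enzyme that makes phosphoenolpyruvate, gave -0.18, -0.12 and -0.17 against 0.18, 0.16 and 0.12, and rose by 0.31 ± 0.05.

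ASNS, asparagine synthetase, is the classical target of the pathway. Averaged over its 2 probe sets it gave -0.22, -0.17 and -0.13 in control arrays and 0.27, 0.16 and 0.15 in HS3ST2-labelled arrays, a rise of 0.37 ± 0.06 log2 (SE, limma adjusted p 0.00272). The average joins unlike parts. Its _s_at probe set gave 0.80 ± 0.06 and was called, whereas the other gave -0.07 ± 0.10 and was not (adjusted p 0.71). With the _s_at probe set left out, ASNS therefore stood at -0.07 with no call.

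Averaged over the 8 enzymes, the arrays gave -0.21, -0.21 and -0.17 in the control group and 0.22, 0.18 and 0.19 in the HS3ST2-labelled group. The class was thus shifted by a like amount in every array of a group. The number of enzymes called was 5 of 8 without control replicate 2, with PSPH, MTHFD2 and ALDH1L2 not called, and 5 of 7 when the _x_at and _s_at probe sets were dropped, with ASNS and SHMT2 not called. PHGDH, PSAT1 and PCK2 kept their calls at the 0.05 threshold in every alternative fit that measured them, but PCK2, at 0.31, was not called when a difference of at least 0.5 was also required.

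**Figure D2:**
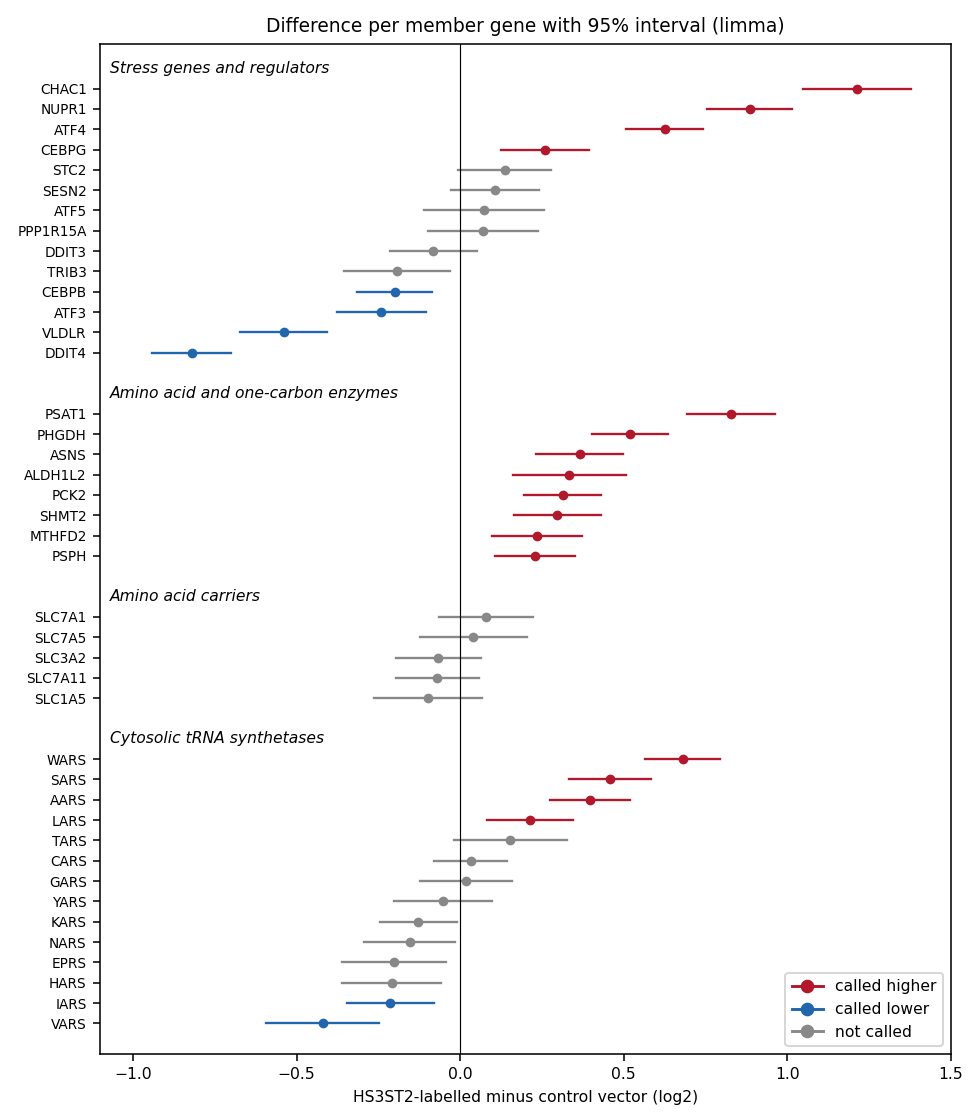
HS3ST2-labelled minus control vector difference of each gene in log2 (horizontal axis) with its 95% interval from limma, by class; red is called higher, blue called lower and grey not called. All 8 enzymes lie right of 0, from 0.23 to 0.83, whereas the intervals of the 5 carriers span 0.

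The carriers move amino acids across the cell membrane, and none of the 5 was called. SLC7A11 imports cystine in exchange for glutamate. It gave 0.08, 0.08 and -0.01 in control arrays and -0.03, -0.06 and 0.03 in HS3ST2-labelled arrays, and the groups overlap. Its difference was -0.07 ± 0.05 log2 (SE), with a 95% interval from -0.20 to 0.06. SLC3A2, the heavy chain that SLC7A11 and SLC7A5 both need, gave 0.09, -0.03 and 0.08 against -0.02, 0.02 and -0.06, also overlapping. Its difference was -0.07 ± 0.06, with an interval from -0.20 to 0.06.

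SLC7A5, the light chain of the leucine carrier, gave 0.01, -0.01 and -0.04 against 0.07, 0.13 and -0.11. The control values lie inside the range of the HS3ST2-labelled ones, and the difference was 0.04 ± 0.07 log2 (SE, interval -0.12 to 0.20). SLC1A5, a glutamine carrier, gave 0.13, 0.04 and -0.04 against 0.03, -0.16 and -0.03, a difference of -0.10 ± 0.07 (interval -0.26 to 0.07). SLC7A1, which imports arginine and lysine, gave -0.02, 0.02 and -0.11 against 0.11, -0.03 and 0.04. The groups overlap, and the difference was 0.08 ± 0.06 (interval -0.06 to 0.22) over 5 probe sets. Of these, 1 was called higher (0.33) and the other 4 lay between -0.03 and 0.09. The highest upper limit of the 5 carriers was 0.22, below the difference of each of the 8 enzymes, although the intervals of some enzymes reach below it. The difference between the classes itself was not tested.

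Aminoacyl-tRNA synthetases each attach an amino acid to its transfer RNA, and they split. WARS, for tryptophan, which is also induced by interferon, gave -0.38, -0.34 and -0.32 in control arrays and 0.36, 0.32 and 0.33 in HS3ST2-labelled arrays. It rose by 0.68 ± 0.05 log2 (SE, 1.60-fold), with both probe sets called at 0.60 and 0.76. SARS, for serine, gave -0.28, -0.18 and -0.25 against 0.21, 0.19 and 0.27, and rose by 0.46 ± 0.05 (1.37-fold). AARS, for alanine, gave -0.18, -0.25 and -0.16 against 0.23, 0.20 and 0.16, and rose by 0.40 ± 0.05 (1.32-fold). In each of these genes every HS3ST2-labelled array lay above every control array. LARS, for leucine, gave -0.20, -0.09 and -0.11 against 0.14, 0.04 and 0.07. It rose by 0.21 ± 0.06, with 2 of its 4 probe sets called (0.43 and 0.36) and the others at 0.05 and 0.02. LARS was not called without control replicate 1 or 3 or HS3ST2 replicate 1 or 3, where it lay between 0.18 and 0.23.

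VARS, for valine, was the largest fall of the class. It gave 0.38, 0.14 and 0.18 in control arrays and -0.13, -0.18 and -0.24 in HS3ST2-labelled arrays, so that control replicate 1 stood above the others while the groups remained apart. VARS fell by 0.42 ± 0.07 log2 (SE), and 1 of its 2 probe sets was called (-0.62, against -0.22). IARS, for isoleucine, gave 0.06, 0.20 and 0.10 against -0.12, -0.11 and -0.06, and fell by 0.21 ± 0.06. This was a marginal call (limma adjusted p 0.0297), which was lost without any array other than control replicate 1 (adjusted p 0.0537 to 0.0956) and was not made over probe sets. HARS, for histidine, gave 0.04, 0.13 and 0.08 against -0.11, -0.04 and -0.24. Its groups do not overlap, and it lay just outside the threshold at -0.21 ± 0.07 (adjusted p 0.052).

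The other 7 synthetases did not pass. EPRS, a fused enzyme for glutamate and proline, was at -0.20 ± 0.07 log2 (SE) with 3 probe sets between -0.22 and -0.19. KARS, for lysine, and NARS, for asparagine, were at -0.13 ± 0.05 and -0.15 ± 0.06. TARS, for threonine, was at 0.15 ± 0.07, CARS, for cysteine, at 0.03 ± 0.05, GARS, for glycine, at 0.02 ± 0.06 and YARS, for tyrosine, at -0.05 ± 0.06. The means of TARS and YARS hide probe sets that differ, with TARS at 0.34 (called) and -0.03, and YARS at 0.23 and -0.34. Averaged over the 14 synthetases, the arrays gave -0.02, -0.03 and -0.03 in the control group and 0.03, -0.0053 and 0.02 in the HS3ST2-labelled group, since rises and falls offset each other.

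A part of the synthetases works bound together in a large complex, held by the scaffold proteins AIMP1, AIMP2 and EEF1E1. This grouping was made after the values were seen. Of its measured synthetases, IARS and RARS, for arginine (-0.24 ± 0.07 log2, SE), fell, as did the scaffold AIMP1 (-0.24 ± 0.06), LARS rose, and EPRS and KARS did not pass. The synthetases with the larger rises, WARS, SARS and AARS, are not part of that complex. Neither are VARS (-0.42 ± 0.07) and FARSB, a phenylalanine enzyme subunit (-0.35 ± 0.09), which fell. Genes called in each direction thus lie both inside and outside the complex.

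**Figure D3:**
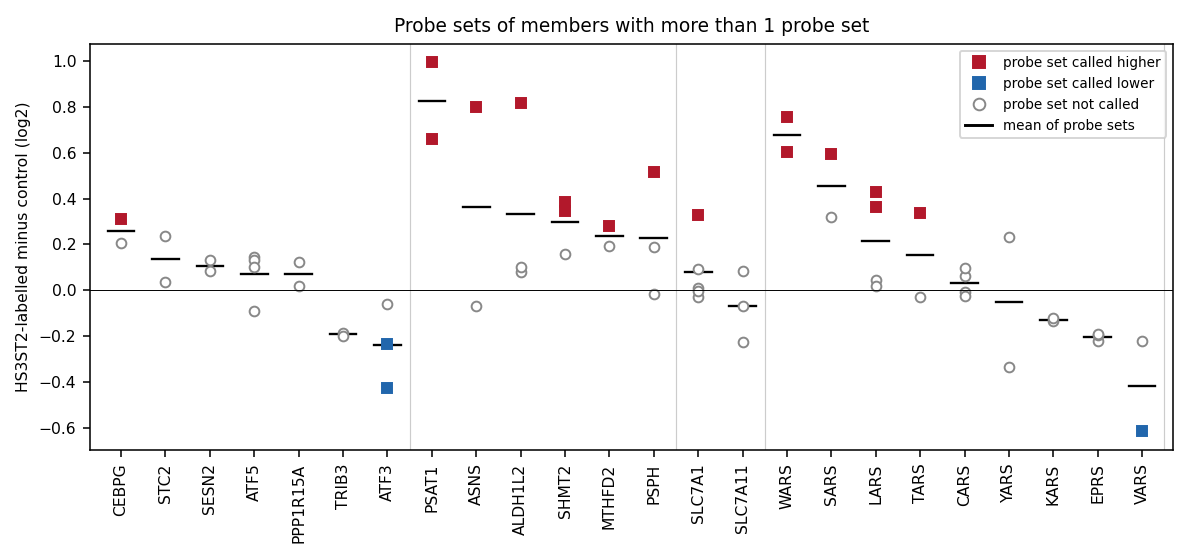
Difference of each probe set in log2 (vertical axis) for the genes with more than 1 probe set, with classes set apart by grey lines; squares are called probe sets, open circles are not called and black lines are the means used for the genes. The probe sets of ASNS, at 0.80 and -0.07, lie farthest apart, while those of TRIB3 and KARS nearly coincide.

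Probe sets of 1 gene often disagreed in size. Of the 24 genes with more than 1 probe set, 12 were called as genes, and in 2 of these, PSAT1 and WARS, every probe set was called. No gene had probe sets called in opposite directions. Of the 80 probe sets, 22 were called higher and 5 lower, beside 16.9% called in either direction over all 54613. The distance between the highest and lowest probe set of a gene ran from 0.01 log2 in TRIB3 to 0.87 in ASNS, with 0.74 in ALDH1L2 and 0.57 in YARS. The annotation does not say which transcript or part of a gene a probe set reads.

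Genes around these members were taken from lists chosen by name. In the pathway that leads to ATF4, 1 of 16 genes rose, 2 fell and 13 did not pass. Neither count is above the share over all genes, 11.5% higher and 13.0% lower. DNAJC3, an inhibitor of eIF2 kinases, rose by 0.44 ± 0.09 log2 (SE), while EIF2B3 and EIF2B5, subunits of the exchange factor that phosphorylated eIF2 blocks, fell by 0.36 ± 0.05 and 0.33 ± 0.08. Without control replicate 1 or 2 only 1 of them fell. The eIF2 kinase genes did not pass. The farthest of them from 0, EIF2AK3 or PERK, the kinase of the endoplasmic reticulum, was at 0.18 ± 0.06 (adjusted p 0.0731). EIF2AK4 or GCN2, which senses uncharged tRNA, was at -0.09 ± 0.05. These kinases are named after their values were seen.

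Of 18 further genes linked to ATF4, 5 rose, 3 fell and 10 did not pass, beside 11.5% higher and 13.0% lower over all genes. GADD45A, a growth arrest protein, rose by 0.91 ± 0.06 log2 (SE), SLC1A4, a carrier of neutral amino acids such as alanine and serine, by 0.62 ± 0.06, and JDP2, a repressor related to ATF3, by 0.46 ± 0.07. The genes that fell were GDF15, a secreted stress cytokine (-0.67 ± 0.08), CTH, which makes cysteine from cystathionine (-0.42 ± 0.08), and EIF4EBP1, a brake on translation initiation (-0.33 ± 0.08). CTH and EIF4EBP1 are named after their values were seen. SLC1A4 and SLC43A1 (0.20 ± 0.05, also named after its value was seen), carriers outside the 5 described above, thus passed the test. The other carriers of this list, SLC38A1 (-0.12 ± 0.05), SLC38A2 (0.15 ± 0.06) and SLC6A9 (0.17 ± 0.12), did not pass. Of the amino acid and folate enzymes of this list other than CTH, none passed. CBS was at -0.01 ± 0.07, GOT1 at -0.04 ± 0.05, SHMT1 at 0.03 ± 0.06 and MTHFD1L at 0.16 ± 0.11. These carriers and enzymes too are named after their values were seen. Only 3 of the 18 rose without HS3ST2 replicate 1 or 2.

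The remaining synthetases were lower or not called, beside 11.5% of all genes called higher and 13.0% lower. Of 4 measured genes for other cytosolic synthetases and scaffolds, 3 fell and 0 rose (also 0 at an unadjusted p under 0.05), namely RARS, AIMP1 and FARSB, a phenylalanine enzyme subunit (-0.35 ± 0.09 log2, SE). These calls were fragile, since none of the 3 was called without control replicate 2, HS3ST2 replicate 1, HS3ST2 replicate 2 or the _x_at and _s_at probe sets, and 1 was without HS3ST2 replicate 3. Of 15 mitochondrial synthetases 5 fell, 0 rose (also 0 at an unadjusted p under 0.05) and 10 did not pass. EARS2 fell by 0.41 ± 0.05, SARS2 by 0.36 ± 0.05, IARS2 by 0.33 ± 0.05 and NARS2 by 0.28 ± 0.05. The serine enzymes went apart, with cytosolic SARS higher and mitochondrial SARS2 lower in every HS3ST2-labelled array than in any control array. WARS and WARS2, for tryptophan, did likewise (0.68 and -0.23). WARS2 is named after its value was seen.

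**Figure D4:**
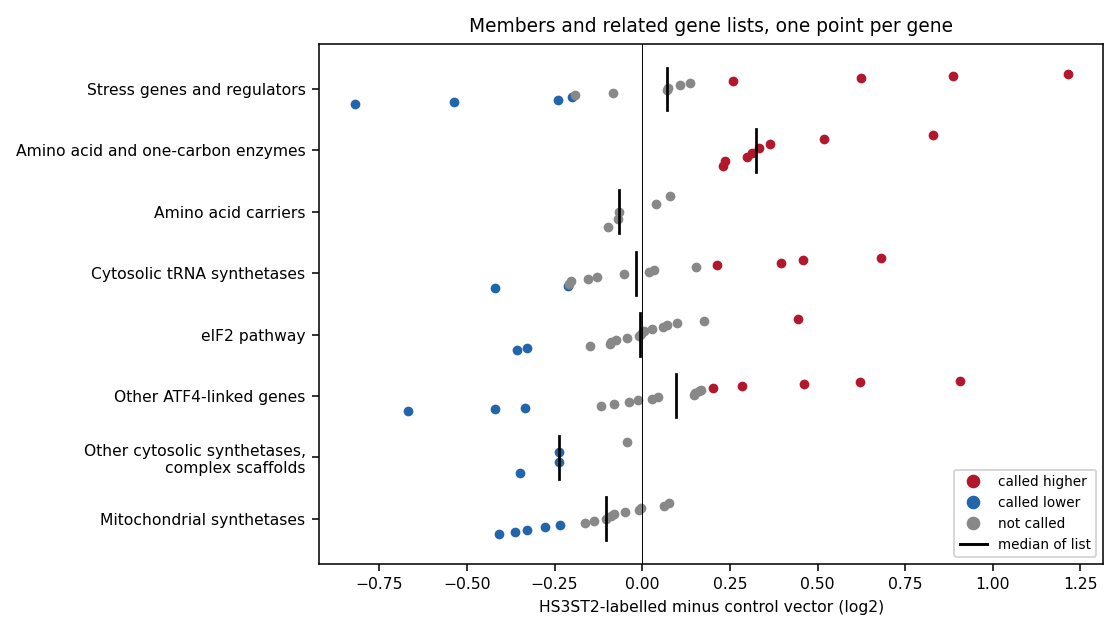
HS3ST2-labelled minus control vector difference in log2 (horizontal axis), with 1 point per gene, for the 4 classes and the 4 neighbouring lists; red is called higher, blue called lower, grey not called and the black bar is the median of the list. The enzymes lie wholly above 0, while none of the 15 mitochondrial synthetases was called higher.

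Signs of RNA quality were set beside these results. Control probe sets for ribosomal RNA had a median that ran from -0.29 to -0.06 log2 in control arrays and from 0.02 to 0.74 in HS3ST2-labelled arrays (p = 0.1 by a two-sided exact permutation test, which cannot go lower with 3 against 3), and its part in the results was not tested. The 3′ minus 5′ signal of the GAPDH and ACTB control probe sets overlapped between the groups. Of 8 leukocyte and 8 fibroblast markers measured, 0 were called by limma, also at an unadjusted p under 0.05. Without HS3ST2 replicate 3, where the ribosomal signal was highest, 7 of 8 enzymes rose and 0 of 5 carriers were called, and 3 stress genes rose and 2 fell.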

How the data were processed

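RNA from 6 samples was labelled from 3.6 µg each and hybridised to 1-colour Affymetrix arrays, per the labels' protocols. The deposited log2 values were made by the authors with RMA, per the submitters' processing notes. They are also centred, with a median of 0 over the 6 arrays for every probe set within 4.8e-07, a step not described in the sources used here, and base 2 was assumed as what RMA writes. Arrays have no read depth; their number sets the precision.

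After 62 control probe sets were removed, 54613 were left. GEO's platform annotation gave 1 symbol for 41091, several for 1801 and none for 11721, and 41037 of the first kind were updated through the gene number in a RefSeq table (GRCh38.p14). Of the probe sets with several symbols, 4 list MARS or PHGDH, and none was used. The one that lists PHGDH, beside MZT2A and MZT2B, gave -0.08 log2 and was not called (limma adjusted p 0.524). Probe sets were averaged per gene. The 19775 genes and, separately, the probe sets were fitted with limma 3.58.1 (lmFit and eBayes, R 4.3.3) without covariates, with Benjamini-Hochberg adjustment over the whole table and a call at 0.05. Differences are HS3ST2-labelled minus control, with moderated SE and n = 3 per group. The fit was tried on simulated data with noise drawn independently for each gene and array. Such data hold no effects shared by the genes of an array, which real arrays can have. Promoter sequences are RefSeq's, matched by symbol.

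All 42 genes could be named, with up to 4 called genes of smallest p from each neighbouring list, and array values for the 4 largest differences of a class and for ATF4, DDIT3, ASNS and TRIB3. The genes, lists and alternatives were chosen with earlier results of these data known. Alternatives tried were the replicate number as a block, each array left out in turn, quantile normalization, median centring, array weights, robust eBayes, other thresholds, no _x_at or _s_at probe sets, and other summaries per gene.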

Additional observations from a re-analysis of the deposited data

How the results depend on the processing

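Over 14 alternative fits, 561 values of the 41 genes were recomputed, of which 34 lost a call, 7 gained one and 1 turned, ASNS without the _x_at and _s_at probe sets (-0.069). A further 7 values that were not called in either fit changed sign, in ATF5, SLC7A11, SLC7A5, CARS, GARS and YARS. Of the 22 called genes, 12 kept the call at the 0.05 threshold in every one of these fits that measured them. With the replicate number as a block the synthetases that fell numbered 1, and CEBPB, IARS and LARS were not called. The labels do not say whether shared numbers pair the arrays, and 3 arrays per group cannot settle it. Deviations of same-numbered arrays from their group means correlated at 0.12, 0.05 and -0.08. Not every array correlated best with its own number, since control replicate 3 and HS3ST2 replicate 2 gave 0.14. No other call among the 41 genes changed under the block.

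Leaving out 1 array lowered the calls over all 19775 genes from 4845 to between 3777 and 4020, so fewer calls are not particular to these genes. It gave 3 to 6 falls among all 41 genes, 2 to 4 among stress genes and 1 to 2 among synthetases, and 5 to 8 enzymes higher. In the neighbouring lists it gave 1 to 2 eIF2 pathway genes lower, 3 to 5 ATF4-linked genes higher and 0 to 2 other cytosolic synthetases lower. Without the _x_at and _s_at probe sets, 2 genes fell in all, 1 stress gene and 1 synthetase. The synthetase was YARS (-0.34), not called in the main fit, while DDIT4, VLDLR, VARS and IARS were not measured there. In the same fit 5 enzymes and 2 eIF2 pathway genes rose, and 0 other cytosolic synthetases fell. Over all genes it called 3328 of 17098. Taking the most variable probe set of each gene, 1 carrier (SLC7A1) rose and 1 other cytosolic synthetase fell. Among the 41 genes this choice lost 2 calls and gained 3. With the median of probe sets 1 call was lost, and 7 of 8 enzymes rose. At an adjusted p under 0.01, 3 genes fell, 2 of them stress genes and 1 a synthetase, and 5 enzymes rose. With a difference of at least 0.5 also required, 6 genes rose, 2 of them enzymes and 1 a synthetase, and 2 fell, both stress genes, with 0 synthetases lower. Quantile normalization, median centring and robust eBayes changed no call of these 41 genes. Depth cannot be judged, since centring removed the signal over background, and the causes of these changes were not tested apart from the probe sets that each setting drops.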
